A study of Rattus norvegicus with 8 samples.

Results

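miR-140 is a miRNA of vertebrates whose hairpin yields a mature strand from each of its arms, and this account covers both strands in the kidneys of rats given aristolochic acid (AA) and of control rats. Its members were found by name, as the rows called miR-140 after the species prefix, in any letter case and with any arm suffix. They were 3 of the 620 rows in the table of reads per known rat miRNA, namely rno-miR-140, rno-miR-140* and a sparse row spelled rno-mir-140* in lower case. The hairpin was chosen by measured values, since earlier results of these counts had shown that most of its reads lay on the arm marked with a star. The dominance of that arm is therefore described here without a test. The change under AA was not part of the rule, although it was known when the hairpin was chosen.

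The 8 kidneys came from male Big Blue rats of the Fisher 344 strain, 6 weeks old when dosing began, which all carry the reporter transgene of that line. In the AA group, 4 rats received the sodium salt of AA, a plant carcinogen that damages the kidney and was given as a mixture of AAI and AAII, at 10 mg/kg in 4 ml/kg by gavage with 5 doses a week over 12 weeks. In the control group (CTL), 4 rats received 0.9% sodium chloride in the same way. Each library was made from the total RNA of a piece cut from a kidney, and the paper does not name the region. All cell types in the piece were pooled. A lower level from fewer cells of a type therefore cannot be told apart from less of the miRNA per cell. One label field names the tissue as liver, whereas the other labels and the paper name the kidney.

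A miRNA gene is transcribed into a long precursor, from which Drosha and then Dicer cut a short duplex. One strand of the duplex is loaded into an Argonaute protein and guides it to mRNAs that pair with its seed, which is bases 2 to 8 of the strand, while most copies of the other strand are degraded. The star was the older mark for the strand thought to be the lesser one. miR-140 lies in an intron of Wwp2, a gene for an E3 ubiquitin ligase, and is best known in cartilage, where it is abundant in chondrocytes. Hdac4, Adamts5 and Smad3 are among its described targets there. They are named here for miR-140 without telling its 2 strands apart.

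Both strands were matched in RefSeq for the rat assembly GRCr8, in which rno-miR-140 of the older naming is rno-miR-140-5p and rno-miR-140* is rno-miR-140-3p. They are shown because the 2 strands have different seeds and hence different possible targets. The seeds are in capitals.

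rno-miR-140 (5p): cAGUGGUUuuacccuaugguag
rno-miR-140* (3p): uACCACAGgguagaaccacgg

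The 5p strand has 22 bases and lies at chr19:52375314-52375335 on the plus strand, and the 3p strand has 21 bases and lies at chr19:52375353-52375373. Neither seed was found in any of the 722 other mature rat miRNAs of the same RefSeq table, so that neither strand shares its seed with a family member there. The first base is C in the 5p strand and U in the 3p strand. The hairpin is shown with both strands in capitals, to let the duplex be followed.

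Mir140 hairpin: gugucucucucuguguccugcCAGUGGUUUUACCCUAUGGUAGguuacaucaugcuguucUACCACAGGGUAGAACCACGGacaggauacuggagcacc

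These 99 bases lie at chr19:52375293-52375391 on the plus strand, inside the interval of Wwp2 at chr19:52256563-52380967, which has the same strand, and 5576 bases before the end of that gene. The nearest other miRNA hairpin of the RefSeq table on this chromosome, Mir3084a, was 3343 kb away. When the hairpin was folded with RNAfold, the minimum free energy was -53.6 kcal/mol, and 19 bases of each strand paired with the opposite strand. Of the first 4 bases of the 5p strand, 2 formed G-C pairs, 1 formed an A-U pair and 1 was unpaired, whereas those of the 3p strand formed 2 G-C and 2 A-U pairs. This fold is a prediction and has no replicate error.

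As deposited, the libraries held 13412373 to 15616670 reads on known miRNAs. At these counts the counting error of both major strands is small beside the spread between rats. The paper states a total of reads for all 8 samples together that falls within this range for a single library. Its number on known rat miRNAs is lower still. The difference is not explained in the sources used here. No pair of libraries within a group was alike within sampling noise (the lowest chi-square per degree of freedom was 437), and each was counted as 1 rat. The libraries numbered 4 in both groups, written CTL4 and AA4 here, stood apart from the rest, because their deviations from the group means correlated across the tested miRNAs at r = 0.351, and results are therefore also given for the 6 libraries numbered 1 to 3. In the check of the tissue, the nephron miRNAs miR-192, miR-194, miR-204 and miR-30a summed to between 104268 and 207290 CPM in the 8 libraries. CPM are reads per 1000000 after TMM scaling, which evens out the makeup of the libraries. Whether this sum tells kidney from liver was not tested. The liver miRNA miR-122 lay at 0.696 to 523 CPM, with its highest values at 53.0 CPM in CTL1 and 523 CPM in AA2 (log2 fold change 2.96, adjusted p = 0.301 from edgeR), and results are also given without this pair.

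The star strand held nearly all reads of the hairpin in every rat. Its share of the reads on both strands was 97.3%, 97.5%, 97.3% and 98.1% in CTL1 to CTL4, and 97.3%, 96.5%, 96.6% and 97.8% in AA1 to AA4. The 95% Wilson intervals were narrow, for example 97.2% to 97.3% in CTL1 and 96.4% to 96.6% in AA2, and cover counting error only. In numbers of reads, rno-miR-140* had 35.7, 39.0, 35.9 and 50.7 reads for each read of rno-miR-140 in CTL1 to CTL4. The same ratio was 35.7, 27.6, 27.99 and 45.1 in AA1 to AA4. CTL4 and AA4 had the highest ratio of their group, and the groups overlapped.

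**Figure D1:**
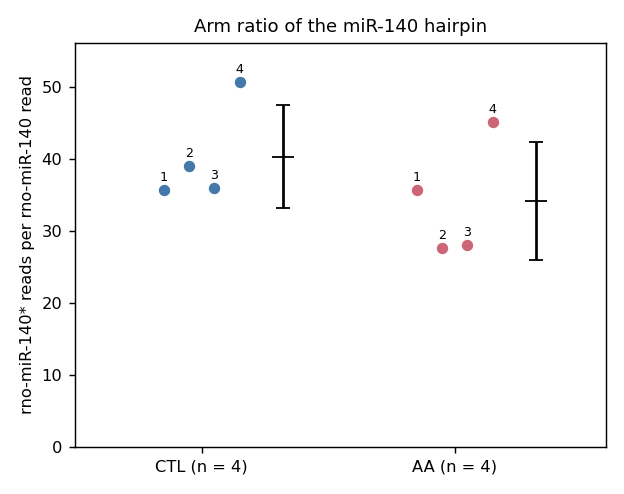
Reads of rno-miR-140* per read of rno-miR-140 in each library (points, numbered as the libraries), with the mean and SD of the 4 rats of a group as a bar at the right of the points. All 8 values lie between 27.6 and 50.7, the groups overlap, and the libraries numbered 4 are the highest of their group.

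Among the 88 hairpins with both a plain and a starred row past the filter on reads, miR-140 had the second highest median share of the star arm, at 97.3%. The filter left out hairpins with too few reads on the plain arm, whatever the share of their star arm. One of these was miR-511, named here after its values were seen. In a library it had 123 to 14014 reads on the star arm and 0 to 3 on the plain arm. The median over the 88 hairpins was 2.08%, and 64 of them had a median share under 10%. The star arm held the majority in all 8 libraries in 9 hairpins and in no library in 74. The 5 other hairpins with the highest median share were miR-423 at 97.8%, miR-144 at 94.1%, miR-421 at 90.6%, miR-330 at 88.6% and miR-221 at 71.3%. The neighbours of miR-140 in this order differed in how near they came to its range of 96.5% to 98.1%, since miR-423* overlapped it at 96.4% to 98.7% and miR-144*, of a red blood cell hairpin, lay below it at 92.8% to 95.8%. In reads, these 2 hairpins were much sparser than miR-140, with 16659 reads at most for miR-423* and 5086 for miR-144* in a library. The hairpin of miR-455, which is another cartilage miRNA and also lies in an intron, had a more even balance with a median share of 54.7% on its star arm.

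**Figure D2:**
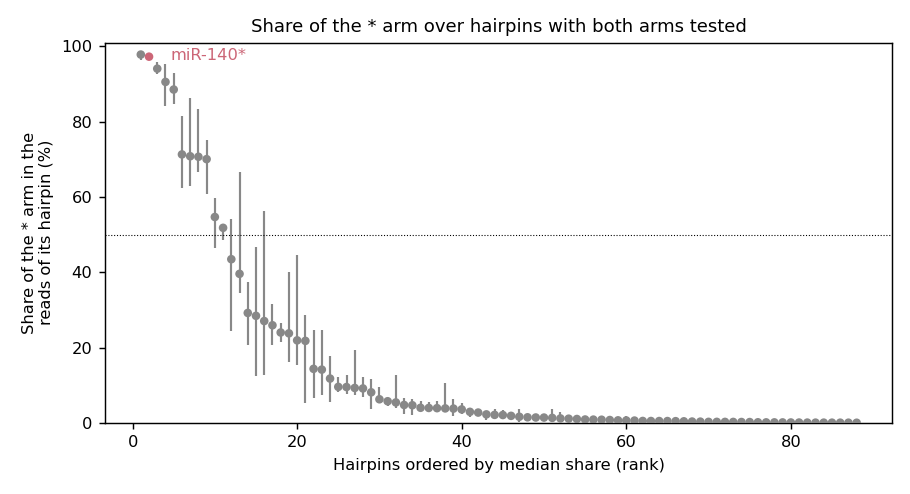
Share of the star arm in the reads of its hairpin, in percent, for the 88 hairpins with both arms tested, ordered by the median (point) over 8 libraries, with the lowest and highest library as the ends of the line and 50% dotted. miR-140*, in red, is second with a median of 97.3%, while 64 hairpins have a median under 10%.

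By number of reads, rno-miR-140* was among the most abundant of the 620 rows in every library. Its rank was 12 or 13 in the CTL libraries and 12, 13, 13 and 17 in AA1 to AA4. The strand without a star ranked from 74 to 79 in the CTL group and from 85 to 104 in the AA group, with 86, 89, 85 and 104 in AA1 to AA4. The row in lower case was at the floor of detection, with 8, 15, 10 and 7 reads in CTL1 to CTL4 and 7, 11, 5 and 8 reads in AA1 to AA4. All 61 names of the table with a lower-case mir end in a star, 33 of them have a twin written miR, and 27 of these held fewer reads in all than the twin. What such a row counts is not given in the sources used here. As only 3 libraries reached 10 reads, this row of miR-140 was not tested with the others, and in the fit without a filter its log2 fold change was -0.56 with an adjusted p of 0.441 (edgeR).

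The comparison of AA with CTL asks whether either strand was altered in the kidney after 12 weeks of the carcinogen. rno-miR-140* was lower in AA rats, with 1.29%, 1.32%, 1.33% and 1.33% of the reads of CTL1 to CTL4 and 1.09%, 0.991%, 0.945% and 0.751% of those of AA1 to AA4. These shares come from the reads as deposited, and every AA rat lay below every CTL rat. After TMM scaling the levels were 14777.5, 14274, 12808 and 14923 CPM in CTL1 to CTL4 and 11278, 8170.4, 8983 and 6951 CPM in AA1 to AA4. The groups again did not overlap, and AA4 was the lowest. The group means were 14196 ± 966 CPM in the CTL group and 8846 ± 1824 CPM in the AA group (SD, n = 4 each).

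The log2 fold change of rno-miR-140* was -0.68 (standard error 0.17, 95% interval -1.06 to -0.30), and the level fell by 37.7%. In the quasi-likelihood test of edgeR, adjusted by Benjamini-Hochberg over the 367 miRNAs tested, the adjusted p was 0.0212. It was called lower, as were 5.99% of all tested miRNAs, while 16.3% were called in either direction. Of all tested miRNAs, 24.3% had groups without overlap. Among the 22 miRNAs called lower, rno-miR-140* had the smallest fall, and 2 had a higher mean level in the CTL group, miR-378 at 289295 CPM and miR-103 at 16689.5 CPM. These are intronic miRNAs as well, of Ppargc1b and of the pantothenate kinase genes.

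The call depended on single libraries. Without CTL1 the adjusted p was 0.0572, without CTL2 it was 0.0608 and without AA2 it was 0.0521 (edgeR), with log2 fold changes of -0.66, -0.69 and -0.70, and without both CTL1 and AA2 it was 0.0912 with a log2 fold change of -0.74. In the 6 libraries numbered 1 to 3 the log2 fold change was -0.61 with an adjusted p of 0.0259 (edgeR). With total counts, where the median of all tested miRNAs moved from 0.06 to 0.27, it was -0.48 with an adjusted p of 0.0392.

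For rno-miR-140, the strand without a star, the difference was not past the threshold. Its share of the reads was 0.0362%, 0.0339%, 0.0371% and 0.0263% in CTL1 to CTL4 and 0.0304%, 0.0359%, 0.0338% and 0.0167% in AA1 to AA4. These shares overlapped, and the libraries numbered 4 were the lowest of both groups. The TMM-scaled levels were 414, 366, 357 and 294 CPM in CTL1 to CTL4 and 316, 296, 321 and 154 CPM in AA1 to AA4. The means were 358 ± 49.4 and 272 ± 79.0 CPM (SD, n = 4 each), and CTL4 lay among the AA rats. On the log2 scale AA differed from CTL by -0.40 (adjusted p = 0.288, edgeR), with a standard error of 0.24 and a 95% interval from -0.93 to 0.13 that includes the value of the star strand. Without AA4 it was -0.30 (adjusted p = 0.178), and with total counts it was -0.19 (adjusted p = 0.594).

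**Figure D3:**
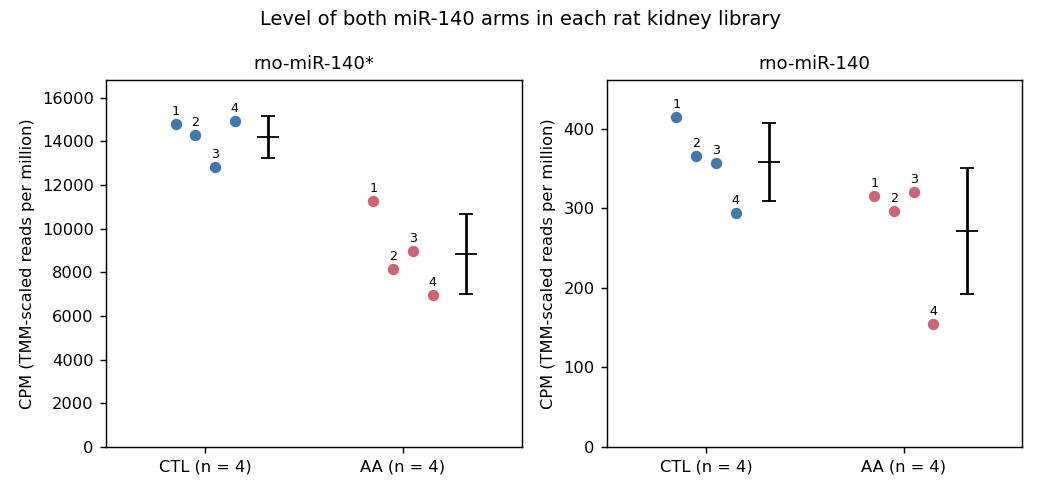
CPM after TMM scaling of rno-miR-140* (left) and rno-miR-140 (right) in each library (points, numbered as the libraries), with the mean and SD of 4 rats per group as a bar and separate axes that start at 0. All 4 AA values of rno-miR-140* lie below all CTL values, whereas for rno-miR-140 the groups overlap and AA4 lies far below the other AA rats.

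Since 1 strand was called and the other was not, the ratio of the 2 strands was compared itself. Such a ratio within a library does not depend on the scaling between libraries. The log2 ratio was 5.32 ± 0.24 in the CTL group and 5.06 ± 0.33 in the AA group (SD, n = 4 each), a difference of -0.26 (standard error 0.23, 95% interval -0.77 to 0.26). The difference was not past the threshold (limma over the 88 hairpins, adjusted p = 0.573), nor in an exact permutation test of the 8 ratios (two-sided, p = 0.229, where 0.0286 is the smallest p for 4 against 4). The interval allows a ratio in AA rats from 0.586 to 1.196 times that in CTL rats, so that a moderate shift between the strands cannot be told from none with these rats. The difference was -0.14 without CTL4 and -0.40 without AA4, both short of the threshold.

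The arm ratio was called between the groups in 3.41% of the 88 hairpins, and in 13.6% the groups did not overlap. The 3 called hairpins, which were chosen here after their values were seen, were miR-152, with a log2 ratio of star to plain arm higher by 1.33 in AA rats (limma, adjusted p = 0.0162), miR-322, at -1.25 (adjusted p = 0.0162), and miR-382, at -1.12 (adjusted p = 0.0209). Of their star arms, miR-152* had 15 to 43 reads in a library and miR-382* 10 to 61, close to the filter, whereas miR-322* had 472 to 1012. By size, the change of miR-140 was number 50 of 88, and the median size was 0.28 on the log2 scale. Without CTL3 the limma fit called 0 hairpins, with 14 at an unadjusted p under 0.05. Both strands had a negative log2 fold change in 31 of the 88 hairpins, miR-140 among them, and both strands had the same sign in 69.

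**Figure D4:**
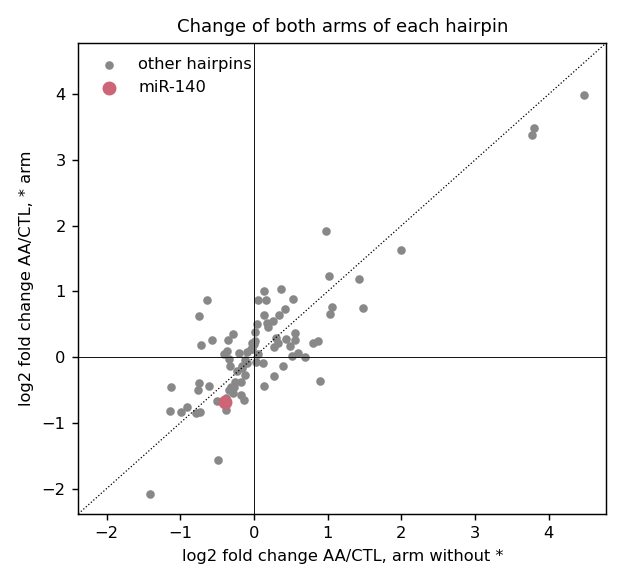
log2 fold change (AA over CTL, edgeR) of the star arm against that of the arm without a star, for 88 hairpins, with the line of equal change dotted. miR-140, in red at -0.40 and -0.68, lies below 0 on both axes and near the line.

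The 5 hairpins named above for their high star share did not give a called change in that arm. The log2 fold changes were -0.14 for miR-423*, -0.67 for miR-144*, 0.01 for miR-421*, -0.44 for miR-330* and 0.25 for miR-221*. Of these, miR-144* was closest in value to miR-140*, with a standard error of 0.30 and an adjusted p of 0.159 (edgeR). Of the other hairpins with both arms tested and a star majority in all 8 libraries, only miR-34b had a called star arm. This hairpin was named here after its values were seen. The star arm of miR-511, whose plain arm was not tested, was called as well (log2 fold change 4.39, adjusted p = 0.00373, edgeR). miR-34b* rose from 1.76 to 18.3 CPM on average, a log2 fold change of 3.38 (adjusted p = 7.97e-06, edgeR), and thus moved opposite to miR-140*.

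The miRNAs whose level over the 8 libraries was most like that of rno-miR-140* were miR-148b-3p (Pearson r = 0.981 of log2 CPM), miR-194 (r = 0.970) and miR-194* (r = 0.960). All 8 points of such a correlation share the scaling and the split into groups, so that it describes these libraries only. miR-148b-3p fell from 6889 to 4129 CPM on average, a log2 fold change of -0.74 (adjusted p = 0.0131 from edgeR). miR-194, a miRNA of kidney and gut epithelia, fell by 0.73 on the log2 scale (adjusted p = 0.0499), and its star arm by 0.84 (adjusted p = 0.0306). In all of them each AA rat lay below each CTL rat, beside 24.3% of all tested miRNAs with groups that did not overlap in either direction. They were picked for their likeness to rno-miR-140*, whose groups did not overlap either. Their separation and their calls thus follow in part from this choice and are no separate evidence.

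For rno-miR-140, the most similar were miR-200b* (r = 0.994), miR-101a (r = 0.977) and miR-126* (r = 0.969). In these miRNAs, as in rno-miR-140, AA4 was the lowest of the 8 libraries and CTL4 the lowest of its group. Their choice by likeness to rno-miR-140 favours such a shared pattern. miR-200b* lay at 58.8 CPM in CTL4 and 24.6 in AA4, and between 57.1 and 84.2 in the other libraries. miR-126*, an endothelial strand, lay at 1614 CPM in CTL4 and 453 in AA4, against 1628 to 2438 in the others. The log2 fold changes were -0.46, -0.31 and -0.58, and none of the 3 was called. The 2 strands of miR-140 had no name in common among their 3 most similar miRNAs. Each strand was left out of the list of the other, and such short lists do not measure how alike the 2 strands were.

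The lists that follow were set with earlier results of these data known, and they give the surroundings of miR-140 by role. In all of them, calls are from the same edgeR fit, in which the 367 tested miRNAs had a median of 0.06 on the log2 scale (0.27 with total counts), and in which 10.4% of them were called higher and 5.99% lower. Of the miRNAs in introns of protein-coding genes, like miR-140 itself, 27 of 29 were tested, 6 were called lower and 2 higher, beside 5.99% and 10.4% of all tested miRNAs, and the median was -0.25. The 6 lower were miR-103, miR-107, miR-378, miR-204, miR-338 and miR-148b-3p, with log2 fold changes between -1.16 in miR-103 and -0.72 in miR-107. miR-103 and miR-107 are near-identical in sequence, and how reads were divided between them is uncertain. The 2 higher were miR-425, at 0.80, and miR-224, which rose from 1.59 to 14.8 CPM with a log2 fold change of 3.20. With total counts 3 were called lower and 3 higher, beside 14 lower and 54 higher among the 367 tested miRNAs. The median of the list was then -0.03, beside 0.27 for all tested miRNAs. The number of calls in each direction thus moved with the scaling. The median of the list lay below that of all tested miRNAs with both scalings.

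**Figure D5:**
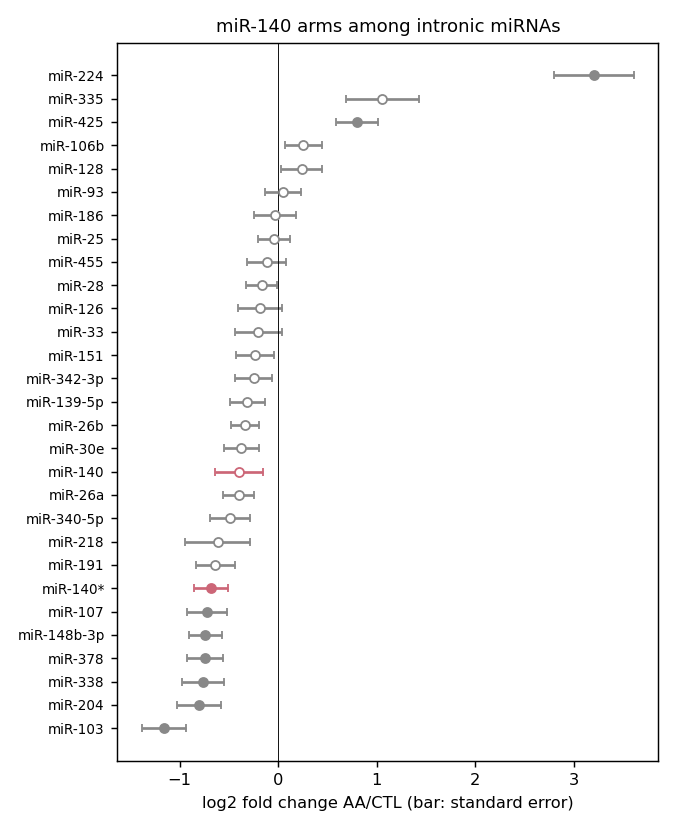
log2 fold change (AA over CTL, edgeR) with its standard error for the 27 tested miRNAs of the intronic list (grey) and for both strands of miR-140 (red), where filled points have an adjusted p under 0.05. miR-140* lies at -0.68 beside the 6 list members called lower, which lie between -1.16 and -0.72, and miR-140 lies at -0.40 with an open point.

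Of the cartilage and mesenchyme list, where miR-140 is best known, 7 of 8 names were tested, 1 was called higher and none lower, where 16.3% of all tested miRNAs were called, and the median was 0.27, or 0.48 with total counts. The called one was miR-199a-3p, of a stromal cluster, at 327 ± 25.8 CPM in the CTL group and 514 ± 97.3 in the AA group (SD, n = 4 each), which is 0.65 higher on the log2 scale (adjusted p = 0.0327). miR-455 and miR-455*, the closest to miR-140 in their cartilage role, were at 51.4 and 65.8 CPM in the CTL group and had log2 fold changes of -0.12 and -0.27, short of the threshold. The most abundant was miR-143, of smooth muscle, at 198659 CPM in the CTL group with a log2 fold change of -0.36 (adjusted p = 0.184).

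Smad3, a described target of miR-140, carries TGF-beta signals, and a list of miRNAs known in that pathway and in kidney fibrosis was therefore examined. The strands of miR-140 differ in their seeds, and whether miR-140* pairs with Smad3 was not tested. Of 14 names 12 were tested, 1 was called higher and none lower, again beside 16.3% of all tested miRNAs, and the median was -0.01, or 0.19 with total counts. The called one was miR-21, which is raised in many forms of fibrosis, with a log2 fold change of 1.99 (adjusted p = 0.00115). The collagen repressors miR-29a, miR-29b and miR-29c had log2 fold changes of 0.04, 0.21 and -0.13, and none of them was called.

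Marker miRNAs of the cell types in the kidney are given beside the lower level of miR-140*, and their levels are not counts of cells. Each sum follows the most abundant members of its list. The lists are short, and their calls stand beside 10.4% of all tested miRNAs called higher and 5.99% called lower. Leukocyte markers summed to 914 to 1264 CPM in the CTL group and 2057 to 4121 CPM in the AA group, with 2 of 4 tested members called higher, miR-142-3p and miR-223, and a median log2 fold change of 0.80, and with total counts miR-150 was called higher as well. Of the nephron markers, 2 of 4 were called lower, miR-194 and miR-204, and the median was -0.76. The sum of the 4 ranged from 138648 to 207290 CPM in the CTL group and from 104268 to 153582 CPM in the AA group. That sum was mostly miR-30a and miR-192, at 125637 and 38410 CPM on average in the CTL group, and neither was called. The called miR-194 and miR-204 were at 2202 and 30.3 CPM there. With total counts no nephron marker was called. Epithelial markers summed to 7114 to 10933 CPM in the CTL group and 5533 to 9871 CPM in the AA group, and endothelial markers to 8118 to 10935 and 6178 to 9455 CPM, with no call among 5 and 2 members and medians of -0.07 (0.14 with total counts) and -0.38 (-0.18 with total counts). In the smooth muscle and stroma list, which shares its members with the cartilage list, 1 of 5 was called higher and the median was 0.50. The sums were 177519 to 237849 CPM in the CTL group and 143529 to 184366 CPM in the AA group. Of these members only miR-143 had a negative log2 fold change (-0.36), and at 198659 CPM in the CTL group it made up most of the sum. Red blood cell markers summed to 499 to 798 CPM in the CTL group and 158 to 564 CPM in the AA group, and striated muscle markers to 32.8 to 55.6 and 30.7 to 42.8 CPM, with no call in either and medians of -0.61 and -0.75. The part of these shifts in the lower level of miR-140* was not tested.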

How the data were processed

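Small RNA of 8 rat kidneys was read on a Genome Analyzer II (Illumina). The authors removed reads under 17 bases, cut longer ones to 26 bases and mapped them with miRanalyzer and Bowtie to known rat miRNAs of miRBase version 17, and they deposited raw counts of reads per miRNA and library. The processing notes also name DESeq, whose role is not given in the sources used here. The gel band held RNA of 22 to 30 nt, and how band and adaptor ligation bear on 2 strands of different sequence was not tested. Column titles gave group and number.

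AA and CTL were compared with edgeR 4.0.16 in R 4.3.3 (TMM, quasi-likelihood test, Benjamini-Hochberg adjustment, threshold 0.05) over miRNAs that reached 10 reads in 4 or more libraries. The standard error was the size of the log2 fold change divided by the root of F. Arm ratios, with 0.5 reads added to each arm, were fitted with limma 3.58.1 over the hairpins with both a plain and a starred row. Both steps were run on simulated data with planted changes larger than those of miR-140. How well changes of its size are found was not tested. Alternatives were other scalings (DESeq2 1.42.0 size factors, total counts), the DESeq2 test, other filters, the library number as a block, other pseudocounts and libraries left out. Named miRNAs are the members, list members, the 3 most similar to each member and the 5 hairpins with the highest star share, and the others are marked in the text as chosen after their values were seen. The members and lists were chosen with earlier results of these data known. Hairpins were folded with RNAfold 2.7.2. The counts of 13412373 to 15616670 reads per library make counting error small for both strands.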

Additional observations from a re-analysis of the deposited data

Results flagged for a closer look

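The level of rno-miR-140 in AA4 was 154 CPM, far from the 296 to 321 CPM of the other AA rats, by a gap of 0.851 of the range of the group (Dixon's test). This was 1 of 30 groups of 4 values examined, of which chance flags about 1 in 20. AA4 was also the lowest AA library for rno-miR-140*, at 6951 CPM, and the source of the value was not tested.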

How the results depend on the processing

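The lower level of rno-miR-140* kept its sign in all 16 alternatives, with log2 fold changes from -0.93 to -0.48, and passed the threshold in 12. It ranged from -0.93 to -0.66 over the fits that left out 1 library, of which 5 of 8 passed, and was -0.74 without CTL1 and AA2, a setting added after seeing the data, as was that of the libraries numbered 1 to 3. rno-miR-140 was called in none of its 16 alternatives (log2 fold changes -0.57 to -0.19, adjusted p 0.0840 to 0.594 from edgeR and DESeq2), and the arm ratio in none of those that gave a p (-0.40 to -0.14), while the reads summed per group gave -0.28 with no test. With the library number as a block (paired fit), rno-miR-140* was at -0.70 (adjusted p = 0.0198) and rno-miR-140 at -0.45 (adjusted p = 0.0952), and 78 miRNAs were called in place of 60. The deviations of same-numbered libraries correlated at 0.0490, 0.198, 0.145 and 0.351, and those of differently numbered libraries at -0.262 to 0.140. The paper describes no pairs of rats, and the main fit did not pair them. Whether the numbers mark pairs or a batch cannot be told from these values. Over all tested miRNAs, 60 were called (38 higher and 22 lower), 35 to 51 without 1 library, 30 without CTL1 and AA2, and 68 with total counts (54 higher and 14 lower). The fits without 1 library or a pair have fewer samples. The lowest of these counts were 35 without CTL2 and 37 without CTL1. The arm ratio was called in 3 hairpins, in 6 of 65 with at least 10 reads on each arm in all libraries, in 0 to 4 without 1 library and in 0 without CTL1 and AA2 (limma, 15 at an unadjusted p under 0.05). What moved these counts was not tested further.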
